A study of Homo sapiens with 16 samples.

Results

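A set of 6 members of the serpin family, SERPINB1, SERPINB3, SERPINB4, SERPINB5, SERPINB6 and SERPINB8, was examined in HCC70, an established line from a basal-like human breast cancer, whose cells had been infected with constructs for short hairpin RNAs (shRNAs). The members were chosen by gene symbol from a deposited table of 11282 genes, with earlier results of these libraries known. Those results held the lower values of SERPINB4 and SERPINB3 with RBPJ hairpins, so that the RBPJ-against-controls values are given below as a description without a test. All 6 listed genes were in the table, and all 6 were among the 10826 genes that passed the filter on low values. Of the 16 libraries, 2 each carried hairpins named for KLF5, RBPJ, NFIB or FOXA1, which are transcription factors of epithelial cells or, for RBPJ, of Notch signalling. The other 8 served as controls and comprised 2 libraries each of plko, an empty-vector name, and of shRFP, shLACZ and shLUC, named for genes that human cells lack. Every library carried its own construct identifier per the labels, so the spread within a target includes a difference between hairpins, and the spread within a control includes one between constructs. The study is about factors that influence which kinds of cell make up basal-like cancer populations.

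Clade B serpins are the intracellular branch of the serpin superfamily. An inhibitory serpin presents an exposed loop as bait, is cleaved by its protease and then traps that protease in a covalent complex. Many clade B members are made by squamous and mammary epithelium, where they guard cells against their own lysosomal or granule proteases, and SERPINB5 (maspin), which inhibits no protease by this trap, is known as a marker of basal and myoepithelial mammary cells. SERPINB3 and SERPINB4 are the squamous cell carcinoma antigens, a pair of near-identical neighbours on chromosome 18. SERPINB5 and SERPINB8 lie in the same chromosome 18 cluster, and SERPINB1 and SERPINB6 lie in the cluster on chromosome 6.

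SERPINB4 and SERPINB3 had the widest ranges of the 6 members, with a highest library 28.4-fold and 9.02-fold above the lowest, and their proximal promoters are printed because the pair moved together across libraries. The RefSeq windows (GRCh38.p14, minus strand) run 250 bases before to 50 bases after each start, at chr18:63661844-63662143 for SERPINB3 and chr18:63644207-63644506 for SERPINB4. Over 300 positions the windows are 98.7% identical. The 4 differing bases, in capitals, are G126A, G201A, C228T and T260C, with the SERPINB3 base first and positions counted from 1 at the 5′ end.
SERPINB3: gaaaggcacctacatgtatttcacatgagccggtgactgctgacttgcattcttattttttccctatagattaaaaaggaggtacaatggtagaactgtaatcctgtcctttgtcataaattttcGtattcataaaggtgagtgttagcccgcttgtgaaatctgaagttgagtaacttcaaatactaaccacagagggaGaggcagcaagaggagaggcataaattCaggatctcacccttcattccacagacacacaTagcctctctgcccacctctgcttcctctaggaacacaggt
SERPINB4: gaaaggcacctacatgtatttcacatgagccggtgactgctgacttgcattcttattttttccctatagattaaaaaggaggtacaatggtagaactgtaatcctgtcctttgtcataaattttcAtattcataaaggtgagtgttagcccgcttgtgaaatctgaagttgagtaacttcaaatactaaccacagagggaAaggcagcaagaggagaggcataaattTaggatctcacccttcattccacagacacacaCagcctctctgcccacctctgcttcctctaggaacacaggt
Neither window holds TGTTTAC, the core letters of a FOXA motif, or GTGGGAA, those of an RBPJ motif, on either strand, which says only that these letters are not in these 300 bases. The letters occur in 3.42% and 6.25% of 35116 promoter windows of the same length. SERPINB6 was the single member with CCCCACCC, a KLF motif found in 11.1% of windows. A member was counted if any of its windows matched, and SERPINB6 had 4 windows where each other member had 1. The rate per window is therefore no measure for SERPINB6, and nothing is read from its match. TTGGC, the core letters of an NFI motif, was found in 45.6% of windows, those of SERPINB5 and SERPINB8 among them.

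The reads of this 3′-end assay could be confused within the pair. In the GENCODE v29 annotation, 97 of the 451 stretches of 50 bases in the last 500 bases of SERPINB3 and of SERPINB4 are shared between them (21.5%), and the other 4 members share none with the clade. The 2 transcripts are 95.7% identical over their aligned length. The assignment of reads that match both was not given in the sources used here, so the 2 genes are reported singly and as a sum.

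Recovered library totals ran from 375713 reads (plko 1) to 3090666 reads (RBPJ 1), with a median of 1164801.5. All 13 basal-like epithelial markers were in the table, summing to 5122 to 11942 units of normalized signal in targeted libraries and 4359 to 9193 in controls. Of 11 leukocyte markers, PTPRC and CD68 were in the table, at a summed signal of 17.1 to 51.2 in targeted libraries and 8.82 to 34.3 in controls, and of 10 fibroblast and endothelial markers 4 were, at 12.5 to 43.2 in targeted libraries and 8.38 to 25.8 in controls. Of 6 luminal hormone-receptor markers 5 were in the table, at a summed 139 to 343 in targeted libraries and 144 to 258 in controls. The targeted transcripts were lower to unequal degrees. KLF5 was at 66.0% and 39.4% of the control mean with its hairpins, NFIB at 61.8% and 10.97%, and FOXA1 at 22.8% and 54.8%. RBPJ was at 84.3% in RBPJ 1, inside the range of the controls, and at 16.6% in RBPJ 2. Its level in RBPJ 1 was above that in KLF5 1 (81.8%), KLF5 2 (79.6%) and NFIB 2 (82.2%). Some of these transcripts were also outside the control range in libraries of another target. Examples were NFIB at 52.3% of the control mean in RBPJ 2 and KLF5 at 141.6% in FOXA1 1. Plko stood apart from the other controls, with 812 of 10826 genes passing the test between them, so several results are also given against the 6 other control libraries. In bulk RNA, fewer cells of one kind and less RNA per cell cannot be told apart.

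**Figure D1:**
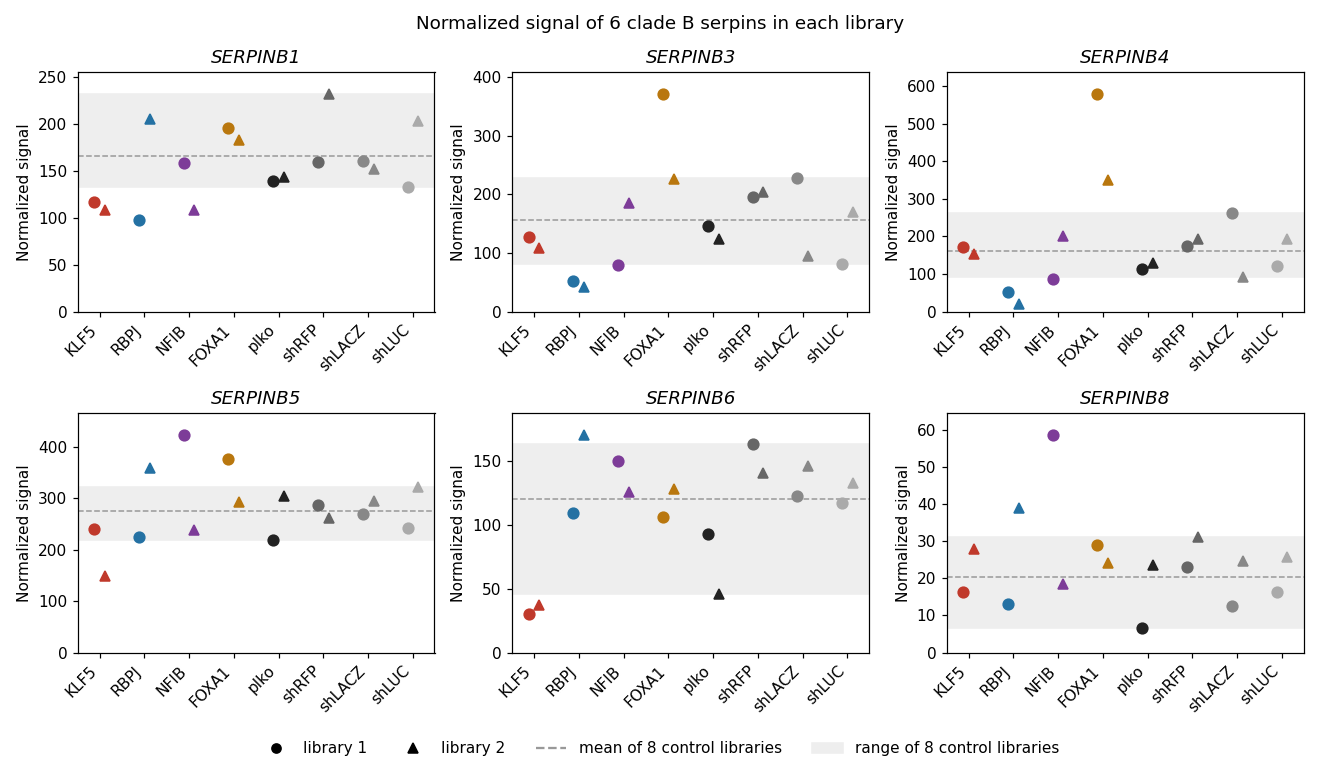
Normalized signal (vertical axis, linear, from 0) of each serpin in the 16 libraries, with circles for library 1 and triangles for library 2 of each construct, the dashed line at the mean and the band over the range of the 8 control libraries. The FOXA1 libraries lie above the band for SERPINB4 and the RBPJ libraries below it for SERPINB3 and SERPINB4, and both KLF5 libraries lie below it for SERPINB1 and SERPINB6.

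SERPINB3 and SERPINB4 are inhibitors that differ in the proteases they trap, SERPINB3 acting on cysteine cathepsins and SERPINB4 mainly on chymotrypsin-like serine proteases such as cathepsin G. SERPINB4 (ENSG00000206073) had its highest normalized signal with FOXA1 hairpins, at 579 and 350.0, against a lowest of 91.0, a median of 152 and a highest of 263 over the 8 controls. Both FOXA1 libraries were above every control library. SERPINB3 (ENSG00000057149) was at 372 and 227 with FOXA1 hairpins, against a lowest of 81.3, a median of 158 and a highest of 228 in controls. FOXA1 1 was above all controls for SERPINB3, and FOXA1 2 was level with the highest of them, shLACZ 1.

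On the log2(value + 1) scale, the FOXA1-against-controls difference was 1.57 for SERPINB4 (SE 0.36, a 2.96-fold difference) and 0.98 for SERPINB3 (SE 0.33). Neither passed limma's test with Benjamini-Hochberg adjustment over all 10826 genes, at an adjusted p = 0.260 for SERPINB4 and 0.793 for SERPINB3. SERPINB4 ranked 10th of all genes by p in that comparison, in which limma called 1 gene (0.00924% of those tested), edgeR 1 and DESeq2 3, and 552 genes had an unadjusted p under 0.05. None of the 6 members was called by limma, edgeR or DESeq2 (2 had an unadjusted p under 0.05 by limma), and their median difference was 0.37, against 0.00 over all genes. Of the alternatives run, SERPINB4 passed only against plko with all 16 libraries fitted, at 1.90 (adjusted p = 0.0368), where 70 genes passed, and against the 6 other controls the difference was 1.46 (adjusted p = 0.183). Among all genes tested, 2.31% had both FOXA1 libraries above the control range.

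With RBPJ hairpins the same 2 genes had their lowest signals of the series. SERPINB4 was at 51.2 in RBPJ 1 and 20.4 in RBPJ 2, against a control mean of 159.8 ± 56.7 (SD, n = 8). SERPINB3 was at 52.5 and 41.3 in the RBPJ libraries, against 156 ± 53.2 in controls. All 4 of these RBPJ values were below every control library, although the RBPJ transcript itself was inside the control range in RBPJ 1. Among all genes tested, 2.03% had both RBPJ libraries below the control range. The log2 difference from controls was -2.19 for SERPINB4 (SE 0.36) and -1.64 for SERPINB3 (SE 0.33). These values are a description, since they entered the choice of the genes. Of the 6 members 1 was called (SERPINB4), beside 0.0277% of all genes, and nothing is read from that count. In RBPJ 2, where SERPINB4 was lowest, it had 43 reads and SERPINB3 had 87.

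The other 4 members were not displaced together with the pair in the RBPJ libraries. Their log2 differences from controls were -0.20 for SERPINB1, 0.06 for SERPINB5, 0.27 for SERPINB6 and 0.26 for SERPINB8, each with an RBPJ library on either side of the control mean. The median over the 6 members was -0.07, against 0.05 over all genes. Against the 6 other controls, with all 16 libraries fitted, the differences were -0.27 for SERPINB1, 0.03 for SERPINB5, 0.004 for SERPINB6 and 0.09 for SERPINB8.

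Set directly against the FOXA1 libraries, the RBPJ libraries were lower in both genes. The log2 difference was -3.76 for SERPINB4 (SE 0.45; -4.40 to -3.11 with each library left out in turn) and -2.62 for SERPINB3 (SE 0.42; -2.97 to -2.26). These differences contain the RBPJ values that entered the choice of the genes, so they too are a description and no test is given. Limma called 7 genes between these targets (0.0647%), 2 of them members, and nothing is read from that count.

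NFIB and KLF5 hairpins left the pair inside or near the control range. SERPINB4 was at 85.4 in NFIB 1 and 201 in NFIB 2, and SERPINB3 at 80.0 and 185. The 2 NFIB libraries were thus on opposite sides of the control mean for both genes, and the control pair shLACZ was split as widely, at 263 and 91.0 for SERPINB4. With KLF5 hairpins SERPINB4 was at 171 and 154 and SERPINB3 at 128 and 109, all inside the control range. The SERPINB4 log2 difference was 2.29 for KLF5 against RBPJ hairpins (SE 0.45) and -1.98 for RBPJ against NFIB hairpins (SE 0.45). Both contain the RBPJ values that entered the choice and are given with no test. No gene was called between RBPJ and NFIB by limma (0%), edgeR or DESeq2, and 156 had an unadjusted p under 0.05. Between NFIB and FOXA1 the SERPINB4 difference was -1.77 (adjusted p = 0.252), with 3 genes called (0.0277%) and 0 members among them.

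Ordered by the mean of their 2 libraries, the constructs ran for SERPINB4 from FOXA1 (465 ± 162, SD) through shRFP (185 ± 13.4), shLACZ (177 ± 122), KLF5 (163 ± 12.2), shLUC (157 ± 49.2), NFIB (143 ± 81.9) and plko (120.4 ± 11.1) to RBPJ (35.8 ± 21.8). FOXA1 was separated from its neighbour shRFP and RBPJ from its neighbour plko, with no overlap of their libraries, whereas shLACZ and NFIB each spanned neighbours on both sides. The share of all genes separated in this way was not counted. The RBPJ values entered the choice of the genes, so nothing is read from the RBPJ step.

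The summed signal of the pair moved as its members did. It was 951 and 577 with FOXA1 hairpins and 104 and 61.6 with RBPJ hairpins, against 315 ± 107 in controls (SD, n = 8, lowest 186, highest 491). Both FOXA1 libraries were above and both RBPJ libraries below the whole range of the controls. The sum does not depend on how the counted reads were divided between the 2 genes. Reads matching both genes would be missing from it if they were left uncounted, which is not known. The FOXA1-against-controls log2 difference of the sum was 1.30 (limma adjusted p = 0.465). The RBPJ-against-FOXA1 difference of the sum was -3.20 (SE 0.42), a description for the same reason as in the single genes. SERPINB4 made up 60.9% of the pair's reads in FOXA1 1 (95% Wilson interval 58.4 to 63.4) and 60.7% in FOXA1 2 (55.7 to 65.4). It made up 49.4% in RBPJ 1 (44.6 to 54.2) and 33.1% in RBPJ 2 (25.6 to 41.5). The controls ran from 43.6% to 60.1% with a median of 49.9%, so both FOXA1 shares were at the upper edge and RBPJ 2 was below every control. Intervals cover counting error only.

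**Figure D2:**
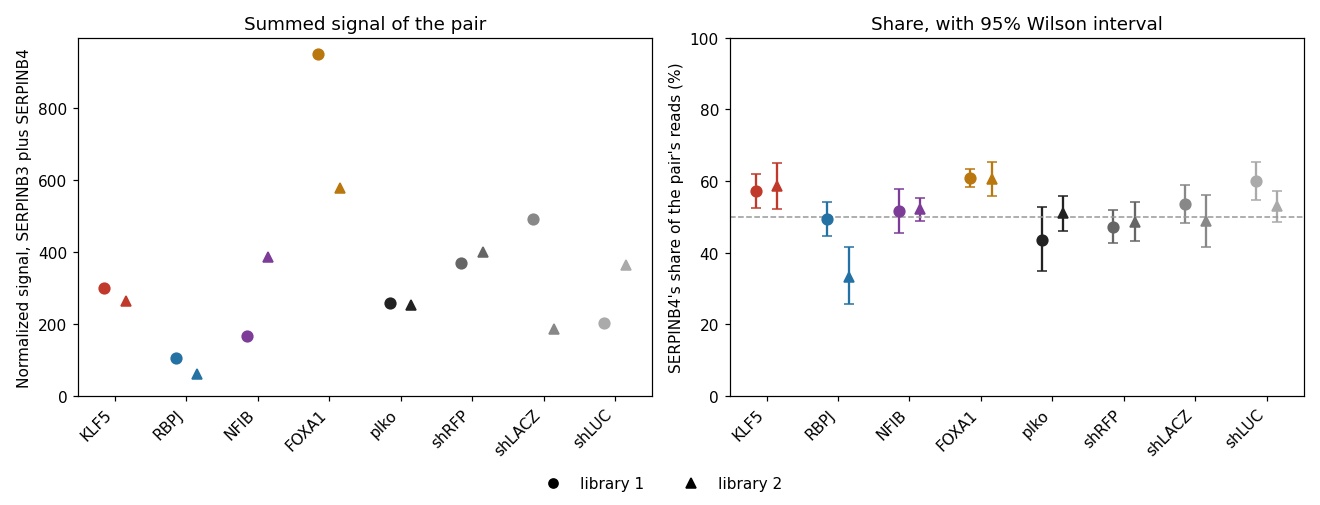
Left, the summed normalized signal of SERPINB3 and SERPINB4 per library; right, SERPINB4's share of the pair's reads in percent with its 95% Wilson interval and a dashed line at 50%. Circles are library 1 and triangles library 2; the sum runs from 61.6 (RBPJ 2) to 951 (FOXA1 1), and the share is lowest in RBPJ 2 at 33.1%.

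SERPINB6, an intracellular inhibitor of cathepsin G and other serine proteases, was the member that changed with KLF5 hairpins. SERPINB6 (ENSG00000124570) was at 29.9 in KLF5 1 and 37.3 in KLF5 2, against a lowest of 45.8, a median of 128 and a highest of 163 over the controls. Both KLF5 libraries were below all 8 controls, as was true of 6.96% of all genes, and the nearest control was plko 2. The log2 difference was -1.73 (SE 0.32, limma adjusted p = 0.0033), which is a fall to 0.301 of the control level. The other 5 members were not called in this comparison, in which 581 genes passed (5.37%). The median of the 6 members was -0.42, against 0.05 over all genes.

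SERPINB6 was low in plko as well. Plko was at 92.7 and 45.8, against 137 ± 16.8 in the other 6 controls (SD, lowest 117). Both plko libraries were below the other 6, and the log2 difference of SERPINB6 was -1.05 in plko (SE 0.23, limma adjusted p = 0.00812). The share of all genes with both plko libraries below the other 6 was not counted. That comparison called 812 genes (7.5%), and SERPINB6 was the single member among them (median of the 6 members -0.35, against 0.01 over all genes). Without plko 2 the plko difference was -0.55 and not called (adjusted p = 0.191). Set against plko with all 16 libraries fitted, the KLF5 difference was -0.95 and not called (adjusted p = 0.0676), and against the 6 other controls it was -1.99 (adjusted p = 7.37e-06). Leaving out KLF5 1 left it at -1.57 (adjusted p = 0.106). The KLF5 transcript was at 70.6 in plko 1 and 96.0 in plko 2, the first of these the lowest of the controls, and its part in the plko result was not tested.

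SERPINB6 was also lower with KLF5 hairpins than with each other target. The log2 difference was -1.997 against RBPJ (adjusted p = 0.0140), -2.004 against NFIB (adjusted p = 0.0107) and -1.77 against FOXA1 (adjusted p = 0.0202), all by limma with SE 0.40. The 3 comparisons share the 2 KLF5 libraries and are not independent. They called 194 genes (1.79%), 302 genes (2.79%) and 312 genes (2.88%), with 2, 1 and 1 members among them; the second member against RBPJ was SERPINB4, whose RBPJ values entered the choice. Each of these SERPINB6 calls was lost without KLF5 1 (adjusted p = 0.139 against RBPJ, 0.109 against NFIB and 0.175 against FOXA1) and without KLF5 2 (0.0539, 0.0530 and 0.0817). They were lost also without RBPJ 2 (0.196), without NFIB 1 (0.0919), and without FOXA1 1 (0.0705) or FOXA1 2 (0.187). In the remaining targets SERPINB6 was at 109 and 170.2 (RBPJ), 149.7 and 125 (NFIB) and 106 and 128 (FOXA1), inside the control range in all but RBPJ 2. By construct mean the order ran from shRFP (152 ± 16.3, SD) and RBPJ (139.7 ± 43.2) through NFIB, shLACZ, shLUC and FOXA1 (117 ± 15.3) to plko (69.3 ± 33.1) and KLF5 (33.6 ± 5.29). The constructs from shRFP to FOXA1 overlapped their neighbours, and only the steps to plko and to KLF5 separated all libraries. The share of all genes with such steps was not counted.

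SERPINB1, the monocyte/neutrophil elastase inhibitor, lies near SERPINB6 on chromosome 6, with SERPINB9 between them. SERPINB1 (ENSG00000021355) was at 117 and 109 with KLF5 hairpins, against a lowest of 133, a median of 156 and a highest of 232 in controls. Both KLF5 libraries were below all controls, as was true of 6.96% of all genes, and the log2 difference of -0.52 (SE 0.25) was not called (limma adjusted p = 0.235). RBPJ 1 (97.2) and NFIB 2 (108) were as low, but their partners RBPJ 2 (205) and NFIB 1 (159) were inside the control range. FOXA1 libraries were at 196 and 183. Differences were -0.31 for NFIB (adjusted p = 0.807), 0.22 for FOXA1 (0.992) and, for plko against the other controls, -0.27 (0.528).

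The neighbours of the members were checked by gene order within 500 kb. Of 8 other tested genes in or near the chromosome 6 cluster, 1 was called with KLF5 hairpins, beside 5.37% of all genes. It was NQO2, a quinone reductase, which was lower (log2 difference -0.97, limma adjusted p = 0.0338). The comparison of plko with the other controls also called 1 of the 8, beside 7.5% of all genes. It was PSMG4, a proteasome assembly chaperone, which was lower in plko (-1.21, limma adjusted p = 0.0133). None of 6 other tested genes in or near the chromosome 18 cluster was called with any target or in plko. BCL2, KDSR, VPS4B and PHLPP1 flank that cluster and SERPINB7 and SERPINB2 lie inside it. With FOXA1 hairpins the log2 difference from controls was 1.52 for SERPINB7, a gene of low signal, beside the 1.57 of SERPINB4. It was -0.28 for BCL2, 0.15 for KDSR, -0.24 for VPS4B, -0.17 for SERPINB2 and 0.28 for PHLPP1. With RBPJ hairpins it was 0.75 for BCL2, 0.21 for KDSR, -0.14 for VPS4B, 0.06 for SERPINB7, 0.40 for SERPINB2 and -0.41 for PHLPP1.

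SERPINB5 (maspin, ENSG00000206075) and SERPINB8, an inhibitor of furin, passed no test in any comparison, and with RBPJ and with NFIB hairpins the 2 libraries of each fell on opposite sides of the control mean. SERPINB5 was at 239.6 and 148 with KLF5 hairpins, 224 and 359 with RBPJ, 423 and 238 with NFIB and 375 and 291 with FOXA1, against a lowest of 218, a median of 278 and a highest of 321 in controls. KLF5 2 was the lowest library of the series and NFIB 1 the highest. No SERPINB5 difference from controls was called by limma: it was -0.53 for KLF5 (SE 0.23, adjusted p = 0.200), 0.22 for NFIB (0.857), 0.28 for FOXA1 (0.992) and -0.11 for plko against the other controls (0.814).

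SERPINB8 (ENSG00000166401) was at 16.4 and 28.0 with KLF5 hairpins, 13.2 and 38.9 with RBPJ, 58.8 and 18.6 with NFIB and 28.97 and 24.0 with FOXA1, against a lowest of 6.62, a median of 23.2 and a highest of 31.1 in controls. NFIB 1 was the highest library and plko 1 the lowest, and the plko 1 value rests on 3 reads. The largest SERPINB8 difference from controls was 0.79 with NFIB hairpins (SE 0.47, limma adjusted p = 0.766), which was -0.02 without NFIB 1. The others were 0.18 for KLF5 (adjusted p = 0.880), 0.47 for FOXA1 (0.992) and -0.71 for plko against the other controls (0.355). Against the 6 other controls, with all 16 libraries fitted, the SERPINB8 difference was 0.003 for KLF5, 0.61 for NFIB and 0.29 for FOXA1. None of the 6 members was called with NFIB hairpins by limma, edgeR or DESeq2, and 0 had an unadjusted p under 0.05. Their median difference was 0.01, against 0.05 over all genes. In that comparison limma called 1 gene (0.00924%), edgeR 0 and DESeq2 11, and 721 genes had an unadjusted p under 0.05.

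SERPINB5 and SERPINB8 shared the direction of their split between hairpins. Both were higher in RBPJ 2 than in RBPJ 1 (1.60-fold and 2.95-fold) and higher in NFIB 1 than in NFIB 2 (1.77-fold and 3.17-fold). SERPINB1 (2.11-fold and 1.47-fold) and SERPINB6 (1.56-fold and 1.19-fold) had the same order, so that all 4 members outside the pair shared it. So had SERPINB2, the plasminogen activator inhibitor of the clade, which is not a member: it was at 87.8 in RBPJ 1, 492 in RBPJ 2, 382 in NFIB 1 and 69.2 in NFIB 2, against 64.0 to 275 in controls. Its 2 RBPJ libraries differed 5.61-fold and its 2 NFIB libraries 5.52-fold, in opposite order by library number. SERPINB3 and SERPINB4 ran the other way, lower in RBPJ 2 and in NFIB 1. SERPINB7 and SERPINB9, unlisted clade B serpins of low signal, did not share the whole order. SERPINB9 was higher in RBPJ 1 (14.9) than in RBPJ 2 (7.59). SERPINB7 was higher in NFIB 2 (2.95) than in NFIB 1 (2.05). The share of all genes with the order of the 4 members was not counted. RBPJ 2 and NFIB 1 hold different hairpins from their partners, and the part of the hairpin, the culture or the library in these splits was not tested.

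**Figure D3:**
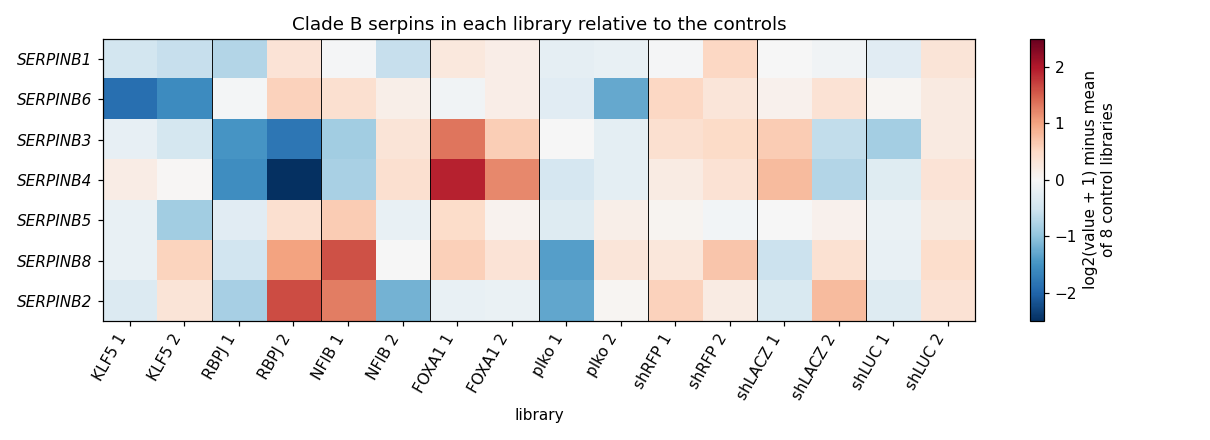
log2(value + 1) of each serpin in each library minus the mean of the 8 controls, in red where higher and blue where lower; targeted libraries are on the left and controls on the right. SERPINB3 and SERPINB4 share their pattern across columns, SERPINB6 is low in both KLF5 libraries and plko 2, and SERPINB1, SERPINB5, SERPINB6, SERPINB8 and SERPINB2 are each higher in RBPJ 2 than RBPJ 1 and in NFIB 1 than NFIB 2.

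Across the 16 libraries Pearson's r of log2(value + 1) was 0.94 between SERPINB3 and SERPINB4, which may share reads. It was 0.66 between SERPINB1 and SERPINB5, 0.55 between SERPINB5 and SERPINB8, 0.53 between SERPINB5 and SERPINB6 and 0.52 between SERPINB1 and SERPINB6. It was 0.46 between SERPINB1 and SERPINB8 and 0.22 between SERPINB6 and SERPINB8. SERPINB1 had an r of 0.33 with SERPINB3 and 0.17 with SERPINB4. For SERPINB3 and SERPINB4 with SERPINB5, SERPINB6 and SERPINB8, r lay between -0.15 and 0.06. These are descriptions over libraries that share depth and construct groups.

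Genes with the pattern most like a member were taken by Pearson's r over all 16 libraries among about 6392 genes with a mean value of at least 20. For SERPINB4 they were CLEC7A, a beta-glucan receptor (0.84), BCL2L15, a BCL2 family member (0.84), and RIGI, a cytosolic RNA sensor (0.81). For SERPINB3 they were CLEC7A (0.81), BCL2L15 (0.80) and RAB3D, a secretory vesicle GTPase (0.76). SERPINB5 was followed by PI3, the elastase inhibitor elafin (0.87), KRT6A, a keratin of stressed epidermis (0.87), and NOP2, a ribosomal RNA methyltransferase (0.83). SERPINB8 was followed by ACTN1, an actin crosslinker (0.86), SLC43A3, a purine transporter (0.84), and KRT17 (0.84). SERPINB6 was followed by RAB7A, a late endosome GTPase, TUFM, a mitochondrial elongation factor, and PPP2R5D, a phosphatase subunit (0.96 each). SERPINB1 was followed by COPS5, a signalosome subunit (0.83), UXS1 (0.82) and SSR3 (0.82). RAB7A and PPP2R5D were lowest in KLF5 1, as SERPINB6 was, but TUFM was lowest in KLF5 2. CLEC7A, BCL2L15 and RIGI were lowest in RBPJ 2, as SERPINB4 was. BCL2L15 was highest in FOXA1 1, as SERPINB4 was, but CLEC7A was highest in FOXA1 2 and RIGI in shLUC 1. The genes were picked by r over these same libraries, which favours a shared extreme, so nothing is read from it.

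**Figure D4:**
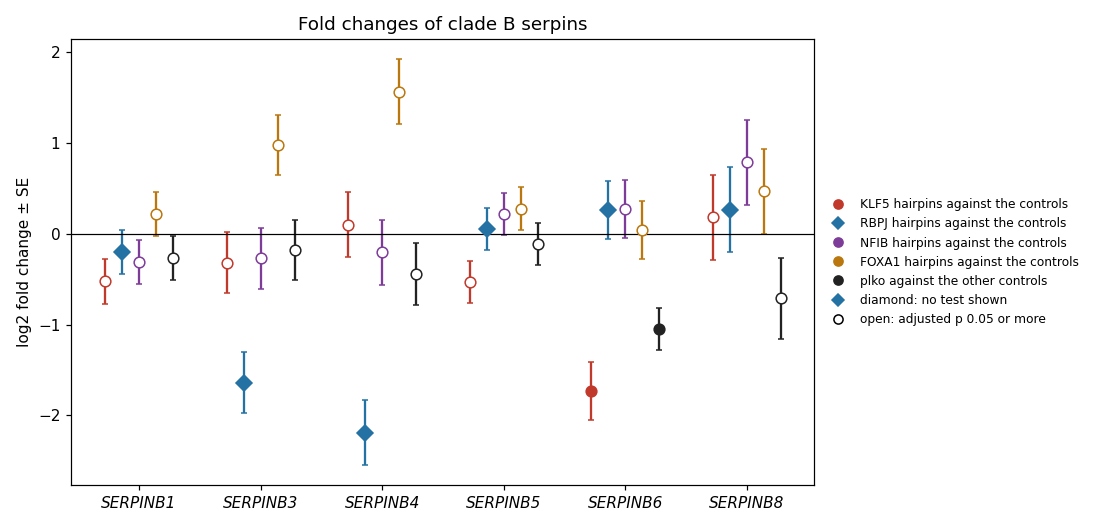
log2 fold change of each serpin with its SE (vertical axis) for each target against the 8 controls and for plko against the other 6. Filled circles passed limma's test at an adjusted p under 0.05 and open circles did not; diamonds give the RBPJ values with no test. SERPINB6 is filled for KLF5 (-1.73) and plko (-1.05), and no FOXA1 or NFIB circle is filled.

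Proteases that clade B serpins can inhibit, caspases and other inhibitors made up 4 lists with 60 genes tested. With KLF5 hairpins 3 of the 60 were called (5%), a share near the 5.37% of all genes. Of 16 tested serine proteases of epithelium and blood cells, PRSS22 rose with KLF5 hairpins, at 254 and 282, against 149.6 ± 22.6 in controls (log2 difference 0.85, SE 0.22, limma adjusted p = 0.0246). KLK5, a kallikrein of the epidermis, had the next smallest p with KLF5 hairpins, at -0.94 (adjusted p = 0.0977). The median of those 16 was -0.19, against 0.05 over all genes. Of 12 tested lysosomal proteases 0 were called with KLF5 hairpins by limma, edgeR or DESeq2, and 2 had an unadjusted p under 0.05 (median 0.03). The smallest p belonged to CTSV (-0.73, adjusted p = 0.231) and CTSA (-0.64, 0.247). Of 16 tested caspase and inflammasome genes, GSDMC, a gasdermin, was at 26.3 and 12.8 with KLF5 hairpins, against 60.4 ± 15.8 in controls (-1.62, SE 0.31, adjusted p = 0.00395). CASP9, the apoptosome caspase, was lower too (-1.31, SE 0.38, adjusted p = 0.0426), a call that 10 of the 16 leave-outs removed, as did edgeR and DESeq2. The median of those 16 genes was -0.04. PRSS22 lost its call without KLF5 1 (adjusted p = 0.180) or KLF5 2 (0.253), and GSDMC without KLF5 2 (0.180). Other protease inhibitors (16 tested, median -0.18) held 0 calls by limma or edgeR and 1 by DESeq2, with 5 at an unadjusted p under 0.05. SLPI, the secretory leukocyte protease inhibitor, was at 1372 and 728 with KLF5 hairpins, against 1788 ± 445 in controls (-0.79, adjusted p = 0.0811), followed by A2ML1 (-1.13, 0.133).

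With RBPJ, NFIB and FOXA1 hairpins 0 genes of these 4 lists were called by limma, edgeR or DESeq2. An unadjusted p under 0.05 by limma was found for 7 of the 60 with NFIB hairpins (11.7%), beside 6.66% of all genes, and for 5 with FOXA1 hairpins (8.33%), beside 5.10%. With RBPJ hairpins it was found for 11 (18.3%), beside 5.48% of all genes (593), and nothing is read from that count. List medians ran from -0.25 to 0.11 over the 3 targets. The genes of smallest p in the RBPJ libraries, given as values since the members were chosen on that contrast, were CTSV (-1.34) and CTSH (-0.84), KLK7 (-1.26) and TMPRSS2 (-0.65), TFPI (-1.17) and CST6 (1.51), and CASP14 (-1.34) and BIRC3 (-0.77). With NFIB hairpins those given are CTSC (-0.64) and CTSS (0.61), PRSS23 (-0.56) and PRSS8 (0.41), CST3 (0.68) and TFPI (-0.78), and CASP14 (-1.52), at limma adjusted p = 0.447 to 0.776. With FOXA1 hairpins they were CTSK (listed at 0 in both libraries, against 0 to 11.03 in controls) and LGMN (0.44), KLK7 (0.99) and KLK6 (1.47), TIMP1 (-0.69) and CST3 (-0.71), and CASP8 (0.37) and CASP6 (-0.38), at adjusted p = 0.759 to 0.992. FURIN, the protease that SERPINB8 is known to inhibit, was at 40.2 and 42.1 with FOXA1 hairpins, against a control range of 6.62 to 40.8.

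In plko 6 of the 60 list genes were called (10%), beside 7.5% of all genes. Against the other controls it was lower in the kallikreins KLK10 (-2.45, limma adjusted p = 0.00867), KLK5 (-0.94, 0.0299) and KLK6 (-1.79, 0.0429), in FURIN (-1.53, 0.00192) and in CTSA (-1.03, 0.00656), and higher in BIRC2, an apoptosis inhibitor (0.86, 0.0100). All 6 calls were lost without plko 1, the shallowest library, at adjusted p = 0.115 to 0.569. KLK6 was lost without 6 further libraries as well, each of plko 2 and 5 of the other controls, and KLK5 also without shRFP 1 or shRFP 2. Of the 4 serine protease calls edgeR made 1 and DESeq2 made 2.

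The remaining serpins gave 0 calls by limma, edgeR or DESeq2 in these 5 comparisons. SERPINB2, SERPINB7 and SERPINB9 are clade B serpins in the table that the choice did not list, and SERPINB7 (0 to 19.1) and SERPINB9 (4.41 to 28.4) were low throughout. SERPINB7, which lies in the chromosome 18 cluster, was at 19.1 and 7.51 with FOXA1 hairpins, against 0 to 12.9 in controls (1.52, limma adjusted p = 0.958). Among 5 tested serpins of other clades the smallest p belonged to SERPINE2 with KLF5 hairpins (-0.70, adjusted p = 0.190) and with NFIB hairpins (-0.67, 0.737), SERPINH1, a collagen chaperone, with FOXA1 hairpins (0.60, 0.992), and SERPINA5 in plko (1.89, 0.151).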

How the data were processed

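RNA of HCC70 cells was copied into 3′ cDNA, barcoded in batches of 12 samples and amplified in the manner of CEL-Seq, and some samples were run again, per the labels' protocols. Batch membership, the aligner, the counter and the use of molecular identifiers were not given in the sources used here. Values are a normalized signal in 1 table that the authors deposited, DESeq2-normalized per its name. Per the submitters' processing notes the build was GRCh37. Each deposited value is a whole number of reads times a constant of its library, within 0.05 of a read, so reads were recovered. No label ties the 2 libraries of a name to separate cultures. P-values measure only the spread between these samples, which mixes the difference between constructs with any technical part. A further 2 columns, matching none of the 16 samples, were left unused. Symbols were found for 11259 of 11282 identifiers.

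The members and all lists were chosen with earlier results of these data known. The test was limma 3.58.1 (R 4.3.3) with a mean-variance trend on log2(value + 1), a scale that understates the change of low genes. The filter kept 10826 genes that reached 5 in 2 or more libraries. All 16 libraries entered with a factor of 5 levels, from which each target was set against the 8 controls and against each other target (6 pairs). For plko against the other 6 controls the factor had 6 levels. P-values are 2-sided and Benjamini-Hochberg adjusted over all genes tested, at 0.05, and called means below that. The fit was tested on simulated data. edgeR 4.0.16 and DESeq2 1.42.0 on recovered reads, other pseudocounts, filters, scalings and controls, and leaving out each library were alternatives. Depth limits low genes: 3 reads equal 6.62 units in plko 1 and 0.746 in RBPJ 1.

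Genes named are the 6 members, list genes that passed, the 2 of smallest p per list and comparison (some are not reported here), the 3 genes of largest Pearson r with each member, and neighbours within 500 kb. KLF5, RBPJ, NFIB and FOXA1 transcripts check the labels. Neighbours came from the RefSeq gene table of GRCh38.p14, another build than the files', so only gene order was used. Protein and hairpin sequences were not used here.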

Additional observations from a re-analysis of the deposited data

Results flagged for a closer look

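SERPINB6 in plko 2 was at 45.8, far below the other 7 control libraries (lowest 92.7, plko 1), and stands apart from its group by the gap to its nearest neighbour. Chance flags about 1 in 20 groups in this way.

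The targets differed in 3 direct comparisons of a member at limma's adjusted p under 0.05. SERPINB6 was lower with KLF5 hairpins than with RBPJ (-1.997), NFIB (-2.004) or FOXA1 hairpins (-1.77, all log2). A further 3 differences contain the RBPJ values that entered the choice of the genes and are given as values with no test. They were 2.29 for SERPINB4 with KLF5 against RBPJ hairpins, and -2.62 for SERPINB3 and -3.76 for SERPINB4 with RBPJ against FOXA1 hairpins.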

How the results depend on the processing

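Plko as a control changed most counts. KLF5 hairpins called 581 genes against all 8 controls, 1309 with plko left out, 1194 against the 6 other controls with all 16 libraries fitted, 372 against plko with all 16 libraries fitted and 1 with plko the only control kept, where fewer libraries were fitted. The last 2 held 0 members, against 1. RBPJ hairpins called 3 genes, and 0 with edgeR, 17 with DESeq2, 5 with a factor of 8 constructs, 6 with plko left out, 1 with plko the only control and 273 against plko with all 16 libraries fitted. Members called were 1, and 0, 2, 0 and 3 with edgeR, DESeq2, plko the only control and plko with all 16 libraries, from which nothing is read since RBPJ values entered the choice. NFIB hairpins called 1 gene, and 0 with edgeR, 11 with DESeq2, 4 with 8 constructs, 74 with plko the only control and 571 against plko with all 16 libraries, which called 1 member (SERPINB6, 1.06). FOXA1 hairpins called 1 gene, and 2 with pseudocount 5, quantile normalization, 8 constructs or plko left out, 3 with DESeq2, 0 with plko the only control and 70 against plko with all 16 libraries, with 1 member. Plko against the other controls called 812 genes, 382 with edgeR and 485 with DESeq2. The 2 fits of all 16 libraries, the alternatives of the target differences and those of the list genes were chosen after seeing the data.

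Leaving out 1 library gave 87 to 881 genes and 0 to 1 members for KLF5, 0 to 142 and 0 to 2 for RBPJ, 0 to 2 genes for NFIB, 0 to 26 for FOXA1, 131 to 1115 and 0 to 1 members for plko, and 2 to 7 members called between targets (6 with all, of which 3 contain the RBPJ values that entered the choice). The KLF5 count was 87 without KLF5 1, 99 without KLF5 2 and 881 without plko 1, the RBPJ count 142 without RBPJ 1, the FOXA1 count 26 without FOXA1 1, and the plko count 131 without plko 1. Several differences turned sign, many of them near 0 but also those of SERPINB8 with NFIB (0.79) and in plko (-0.71). SERPINB4 with KLF5 was -0.00048 with edgeR, -0.0098 without plko (left out or fitted apart) and -0.096 as the sum with SERPINB3, and -0.0033 to 0.21 over leave-outs. SERPINB8 with KLF5 was -0.016 with edgeR and -0.19 to 0.55 over leave-outs. SERPINB1 with RBPJ was 2.7e-05 against plko by either fit and -0.74 to 0.33 over leave-outs. SERPINB4 with NFIB was 0.13 against plko and -0.82 to 0.41 over leave-outs. SERPINB6 with FOXA1 was -0.048 with edgeR, -0.041 with DESeq2 and -0.22 without plko, and -0.14 to 0.17 over leave-outs. Leave-outs ran for RBPJ from -0.28 to 0.40 (SERPINB5), -0.052 to 0.58 (SERPINB6) and -0.48 to 1.01 (SERPINB8), for NFIB from -0.87 to 0.33 (SERPINB3), -0.19 to 0.63 (SERPINB5) and -0.017 to 1.59 (SERPINB8), and for plko from -0.35 to 0.13 (SERPINB5) and -1.56 to 0.13 (SERPINB8). Of the members' calls against controls, SERPINB6 with KLF5 ran from -1.92 to -1.57 and SERPINB4 with RBPJ from -2.83 to -1.55 over leave-outs. The cause was not tested.

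Over 28 pairs of constructs the correlation of the differences between library 1 and library 2 ran from -0.195 to 0.216, and 3 pairs were over 0.1. Each library carried its own construct, so these correlations cannot show whether libraries of the same number share a batch. With a replicate block the KLF5 count was 579, the plko count 854 and every count of members was the same.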
